A study of Mus musculus with 2 samples.

Results

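The proteasome genes described here were the protein-coding genes of GENCODE M21 on chromosomes 1 to 19 whose symbol starts with Psma, Psmb, Psmc, Psmd, Psme, Psmf or Psmg, without the tissue forms Psmb8, Psmb9 and Psmb11. The rule found 46 of 20753 protein-coding genes, on 15 chromosomes, with 10 of the genes on chromosome 11. They were chosen by name and not by any measured value, though with earlier results of these data known. Of the 46, 44 encode subunits, activators, an inhibitor or assembly chaperones of the proteasome. The other two are Psmc3ip, a meiotic recombination factor that took its name from binding PSMC3, and Psme2b, a retrogene copy of Psme2.

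The assay was DNase-seq: DNase I cuts accessible DNA in nuclei, and sequencing of the cut ends maps open chromatin. The samples were thymus tissue of 2 female mice aged 14 days of the strain B6CASTF1/J, hybrids of C57BL/6J and CAST/EiJ parents. They form 1 group of 2 biological replicates with no treatment, mutation or control, and their labels carry separate numbers for the animals but a single donor identifier. With 1 group there was no contrast to test, so values are given for each replicate, beside the same values over all protein-coding genes.

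Replicate 1 had 94373 peaks and 270167 footprints on the chromosomes used and replicate 2 had 105000 and 310738. The read depth of both libraries is unknown. The tissue label was checked against markers. All 11 thymocyte genes had an open promoter in both replicates, as did 4 of 8 thymic epithelial genes, with Foxn1, Krt5, Krt8 and Psmb11 closed. The same held for 2 of 5 myeloid, 4 of 6 endothelial and mesenchymal and 1 of 3 erythroid genes, and for 0 of 4 B cell and 0 of 5 hepatocyte genes. Over all protein-coding genes the share was 59.4%. Counts near it, such as 4 of 8 or 4 of 6, do not show that those cells were present.

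The proteasome is the protease that degrades ubiquitin-tagged proteins in the cytosol and nucleus. Its barrel, the 20S core, is built from outer rings of alpha subunits and inner rings of beta subunits, some of which carry the catalytic sites. The 19S particle caps the barrel. Its ATPases unfold the substrate and its non-ATPase subunits bind and remove ubiquitin. In the thymus, specialised beta subunits shape the peptides that are shown to developing T cells.

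The bases just upstream of the transcription start site (TSS) are shown for the strongest promoter in each role, and for genes in which letters of a known binding motif lay in a footprint with 5 bp added to each side. A footprint is a short stretch that DNase I cuts less than its surroundings. The sequences are those of RefSeq promoters on GRCm38.p6, the C57BL/6J reference with the chromosomes of mm10, so CAST alleles may differ. The table held 38 of the 46 genes. Psma8, Psmb1, Psmb2, Psmb7, Psmc3, Psmd3, Psmd7 and Psmg2 had no entry. Each line holds the 120 bases that end directly before the outermost annotated TSS, read 5′ to 3′ along the gene. Capitals mark bases that lay in footprints of both replicates.
Psma2, chr13:14613120-14613239, plus strand: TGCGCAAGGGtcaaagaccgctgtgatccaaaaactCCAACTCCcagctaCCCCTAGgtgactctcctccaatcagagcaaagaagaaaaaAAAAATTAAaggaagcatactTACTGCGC
Psmb3, chr11:97703279-97703398, plus strand: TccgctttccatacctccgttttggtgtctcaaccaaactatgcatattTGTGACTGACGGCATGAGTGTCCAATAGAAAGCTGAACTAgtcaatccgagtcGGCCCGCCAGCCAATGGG
Psmc4, chr7:28050102-28050221, minus strand: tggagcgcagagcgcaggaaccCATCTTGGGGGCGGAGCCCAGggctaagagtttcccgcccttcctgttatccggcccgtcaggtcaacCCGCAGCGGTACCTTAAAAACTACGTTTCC
Psmd4, chr3:95042615-95042734, minus strand: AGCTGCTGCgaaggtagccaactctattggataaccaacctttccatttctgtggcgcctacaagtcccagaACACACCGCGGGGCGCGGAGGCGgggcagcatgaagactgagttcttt
Psme4, chr11:30771606-30771725, plus strand: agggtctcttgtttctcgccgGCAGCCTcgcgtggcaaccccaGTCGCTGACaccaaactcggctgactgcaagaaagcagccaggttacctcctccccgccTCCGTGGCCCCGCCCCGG
Psmg1, chr16:95990961-95991080, minus strand: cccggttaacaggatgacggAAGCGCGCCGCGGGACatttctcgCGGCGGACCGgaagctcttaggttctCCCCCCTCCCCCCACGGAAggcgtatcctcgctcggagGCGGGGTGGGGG
Psmb5, chr14:54618023-54618142, minus strand: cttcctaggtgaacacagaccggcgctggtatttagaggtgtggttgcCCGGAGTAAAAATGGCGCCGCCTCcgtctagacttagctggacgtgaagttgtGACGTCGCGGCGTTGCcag
Psmd9, chr5:123228070-123228189, plus strand: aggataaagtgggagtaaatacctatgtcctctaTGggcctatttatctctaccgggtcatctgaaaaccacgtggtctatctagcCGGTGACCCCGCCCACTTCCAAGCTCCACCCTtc
Psmd5, chr2:34870963-34871082, minus strand: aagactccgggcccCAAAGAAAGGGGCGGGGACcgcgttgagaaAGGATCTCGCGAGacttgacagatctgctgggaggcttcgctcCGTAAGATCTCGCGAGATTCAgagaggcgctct
Psmc5, chr11:106256034-106256153, plus strand: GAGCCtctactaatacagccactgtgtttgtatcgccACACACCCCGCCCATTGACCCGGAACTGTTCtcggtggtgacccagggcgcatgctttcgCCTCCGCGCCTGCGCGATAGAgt
Psmc6, chr14:45329668-45329787, plus strand: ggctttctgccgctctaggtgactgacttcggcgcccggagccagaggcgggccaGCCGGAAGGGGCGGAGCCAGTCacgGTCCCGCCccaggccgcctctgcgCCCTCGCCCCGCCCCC

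In Psmb3 both CCAAT boxes, the letters of the factor NFY, were in capitals, centred at -48 and -6 bp from the TSS. Psmc4 had the letters GGGCGG of the SP/KLF family in capitals, centred at -87 bp. Psmd5 had a pair of palindromes of the letters TCTCGCGA, which the factor BANP binds. Psmc5 had GCGCANGCG, the letters of nuclear respiratory factor 1 (NRF1), centred at -13 bp. Psmb5 and Psmd9 had TGACNNNGC, the core of the antioxidant response element, centred at -16 and -27 bp.

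The letters CCGGAAG, bound by factors of the ETS family, are shown with 10 bases on each side, because of the motifs searched they had the widest gap in share between these promoters and all promoters. The lines give the sites that lay in footprints of both replicates after 5 bp were added to each side of a footprint, so a site can reach past the footprint itself, as in Psmg1. Each is given on the strand that reads CCGGAAG, with those letters in capitals.
Psma6, chr12:55398813-55398839, plus strand: cgccggtgctCCGGAAGcagtagccat
Psma6, chr12:55398832-55398858, minus strand: aagccccctcCCGGAAGttatggctac
Psmc1, chr12:100110164-100110190, minus strand: atcgccaccgCCGGAAGtgcatccacc
Psmc3ip, chr11:101095426-101095452, minus strand: cgcctcctcaCCGGAAGgaggcgtttc
Psmc6, chr14:45329714-45329740, plus strand: ggcgggccagCCGGAAGgggcggagcc
Psmd14, chr2:61711731-61711757, plus strand: agccgggaacCCGGAAGtacttctctg
Psmd4, chr3:95042723-95042749, minus strand: tacagctgttCCGGAAGctgctgcgaa
Psmd6, chr14:14120974-14121000, minus strand: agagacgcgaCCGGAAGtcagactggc
Psme3, chr11:101316205-101316231, minus strand: gccgctcacgCCGGAAGttgcgtcaca
Psme4, chr11:30771712-30771738, plus strand: tggccccgccCCGGAAGtgacttgagg
Psmg1, chr16:95991013-95991039, minus strand: tcgcggcggaCCGGAAGctcttaggtt

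These 11 sites belong to 10 genes, and 10 of the sites were centred within 70 bp of an annotated TSS. The exception was Psmd4, at -122 bp. In Psme4 the letters lay across the TSS, centred at -1 bp, and in Psmd6 and Psmc3ip at -3 bp. Psma6 had a pair of sites on opposite strands, at 51 and 70 bp downstream of its inner TSS. Psmb7 and Psmd7 also had the letters in footprints of both replicates and are named only.

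Nearly all of the promoters were open. A promoter counted as open if each replicate had a peak no further than 500 bp from one of the gene's annotated TSSs, and 44 of 46 genes met this (95.7%), against 59.4% of all protein-coding genes. The same 44 of 46 were reached in each replicate alone. With the shorter, stricter peak list the count was also 44, against 55.5% of all genes. All 44 open promoters held a footprint in both replicates, as did 96.5% of all open promoters (57.3% of all genes, open or closed). Open chromatin is measured over all cells of the tissue, so fewer cells with an open site and less opening in each cell cannot be told apart.

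The closed pair was Psma8 and Psme2b. Psma8 encodes the alpha subunit of the testis proteasome that takes the place of Psma7. Neither gene had a peak within 500 bp of a TSS in either replicate, and the deposited track listed 0 bp with a false discovery rate under 0.05 there. Psmb11, the beta subunit of cortical thymic epithelium left out by the rule, also had 0 bp in both replicates.

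Promoter strength, the deposited signal of the strongest peak at the promoter, is on a scale of its own in each replicate. It was therefore ranked among all open promoters of a replicate, and the percentiles of both replicates were averaged. Genes are called strongest or weakest below by this mean percentile, and the order within 1 replicate can differ. The median percentile of the 44 open promoters was 60.5, against 52.8 over all 12325 genes open in both replicates. By replicate the median strengths were 7.67 and 5.09, against 6.19 and 4.08. Of the 44 promoters, 34 (77.3%) lay above the 50th percentile, against 52.6% of all open promoters, but only 3 (6.82%) lay above the 90th, against 8.51%. Ribosomal protein genes, with 73 of 73 open, had a median percentile of 75.5. Nuclear genes of the respiratory chain, with 73 of 79 open, had 70.3.

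**Figure D1:**
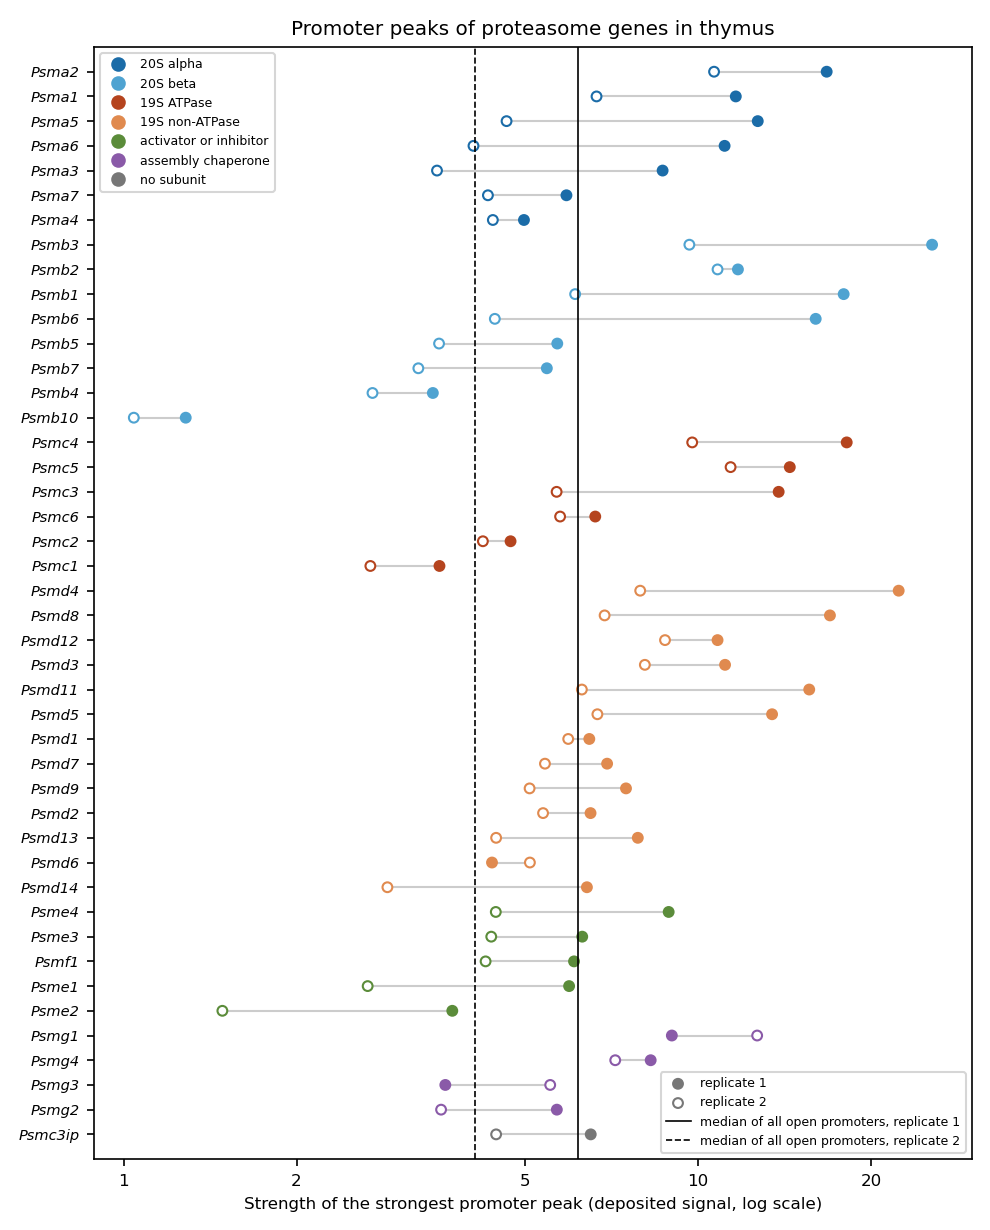
Strength of the strongest promoter peak of each gene (horizontal log axis, deposited signal) for the 44 genes with an open promoter, coloured by role and ordered by percentile within it. Filled points are replicate 1, open points replicate 2, and the vertical lines are the medians of all open promoters, 6.19 and 4.08. Psmb10 stands lowest, at 1.28 and 1.04.

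The CpG content of the promoters moved with these values. CpG ratio is the observed number of CG steps over that expected from base content, here in the bases from 250 before to 50 after the outermost TSS. A ratio of at least 0.6 was found in 35 of the 46 genes, of which 34 were open (97.1%), against 90.3% of all genes with such a ratio. The open ones had a median percentile of 61.6, against 60.9 for all open promoters with such a ratio. When ranked only among those promoters, the median was 53.4, against 52.6. Of the 11 genes with a lower ratio 10 were open, against 31.3% of all such genes, with a median percentile of 53.6 against 32.0. Among these lower-ratio genes, Psma6 (ratio 0.185) and Psmf1 (0.279) had their strongest peak at an inner TSS. In Psme2 (0.541) the strongest peaks lay 420 and 300 bp from the TSS, outside the bases of the ratio. The same held for Psmb10 (0.249) in replicate 2 only, at 344 bp. In these genes the ratio and the strength describe different sites, for Psmb10 in replicate 2 alone. The part of CpG content in the openness of these promoters was not tested.

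Among the alpha subunits, 7 of 8 promoters were open, all above the 50th percentile, with a median of 62.2. Psma2 was the strongest, at 16.7 in replicate 1 and 10.7 in replicate 2 (percentile 91.0), from a peak at chr13:14612981-14613260. Psma4 was the weakest, at 4.98 and 4.39 (percentile 50.3). Psma6 was open at an inner TSS: the peak at chr12:55398721-55398900 had 11.1, and in replicate 2 the corresponding peak had 4.07. The peaks at its outermost TSS had 1.27 and 0.593.

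The beta subunits spanned the widest range of percentiles of the roles, from 19.9 to 94.6, with all 8 promoters open and a median of 59.1. Psmb3, a structural subunit, had 25.5 and 9.66 at chr11:97703241-97703440, the highest percentile of all 44. The catalytic subunits of the standard proteasome differed. Psmb5, with the chymotrypsin-like site, had 5.69 and 3.54, and Psmb7, with the trypsin-like site, had 5.45 and 3.26. Psmb6, with the caspase-like site, had 16.02 and 4.43. Psmb6 was above the all-promoter median in both replicates, whereas Psmb5 and Psmb7 were below it in both. Psmb1 was open at both of its start regions, with peaks of 17.9 and 6.11 at the outer and 9.36 and 5.12 at the inner one.

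Psmb10, the interferon-inducible subunit that replaces Psmb7 in the immunoproteasome, had the weakest open promoter of the 44, at percentile 19.9. In replicate 1 its TSS peak at chr8:105938341-105938540 had 1.28 and a second peak, inside the gene, had 1.15. In replicate 2 the only promoter peak was 60 bp wide, at chr8:105938041-105938100, with 1.04, and its edge lay 344 bp from the TSS. The deposited track nonetheless listed 628 bp in replicate 1 and 686 bp in replicate 2 with a false discovery rate under 0.05 within 500 bp of the TSS. The other inducible subunits, left out by the rule, ranked higher. Psmb8 had 7.95 and 4.54 (percentile 58.6) and Psmb9 had 19.4 and 11.9 (percentile 94.1).

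By mean percentile the ATPases had the highest median of the roles, at 67.7, with 6 of 6 open. Within single replicates they did not lead, with medians of 66.6 and 68.8. The alpha subunits were higher in replicate 1 (72.2), and the assembly chaperones (74.1) and the non-ATPases (70.9) in replicate 2. Psmc4 was the strongest, at 18.1 and 9.77 (percentile 90.9), with its peak at chr7:28050081-28050300. Psmc1 was the weakest, at 3.55 and 2.69 (percentile 37.3). These 6 proteins form a single ring, in which each occupies one place, and their promoters ranged from percentile 37.3 to 90.9.

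All 13 genes of the non-ATPase group were open, with a median percentile of 61.9 and a range from 46.3 to 89.6. Psmd4, a ubiquitin receptor, was the strongest by mean percentile (89.6), at 22.3 and 7.93, although Psmd12, at 8.76, and Psmd3, at 8.08, were higher in replicate 2. It had its peak at chr3:95042541-95042760. Psmd14, the subunit that cleaves ubiquitin from the substrate, was the weakest, at 6.40 and 2.88. Of the 13, 12 lay above the 50th percentile. This group also holds Psmd5 and Psmd9, which help assemble the 19S base and are absent from the finished particle. Psmd5 had 13.5 and 6.68, and Psmd9 had 7.49 and 5.09.

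By mean percentile the activators and the inhibitor had the lowest median of the roles, at 52.6, with all 5 open. In replicate 2 the median of the beta subunits was lower, at 51.5 against 54.3. Psme4, which encodes the activator PA200, was the strongest, at 8.89 and 4.45 (percentile 60.04). Psme1 and Psme2 encode the subunits of PA28, the interferon-inducible activator. Psme1 had 5.96 and 2.66 (percentile 44.03). Psme2 had 3.73 and 1.49 (percentile 31.7), the weakest of the group, but those peaks lay 420 and 300 bp from the TSS on the side of the neighbour Rnf31. At the TSS of Psme2 itself the peaks had 1.46 and 1.26. The 3 interferon-inducible genes, Psmb10, Psme1 and Psme2, thus lay below the 50th percentile, with a median of 31.7. This trio was put together with earlier results of these data known.

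Among the assembly chaperones all 4 promoters were open, with a median percentile of 61.6. Psmg1, which pairs with Psmg2 to assemble the alpha ring, had 9.001 in replicate 1 and 12.7 in replicate 2 (percentile 81.4). Psmg2 was the lowest, at 5.68 and 3.57 (percentile 47.9). In replicate 1 its only promoter peak lay 179 bp from the TSS, on the side of Cep76. Replicate 2 had a peak over that site too, with 2.96, and a separate, stronger peak that covered the TSS. Psmc3ip, which is no subunit, had 6.503 and 4.45 (percentile 54.7).

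**Figure D2:**
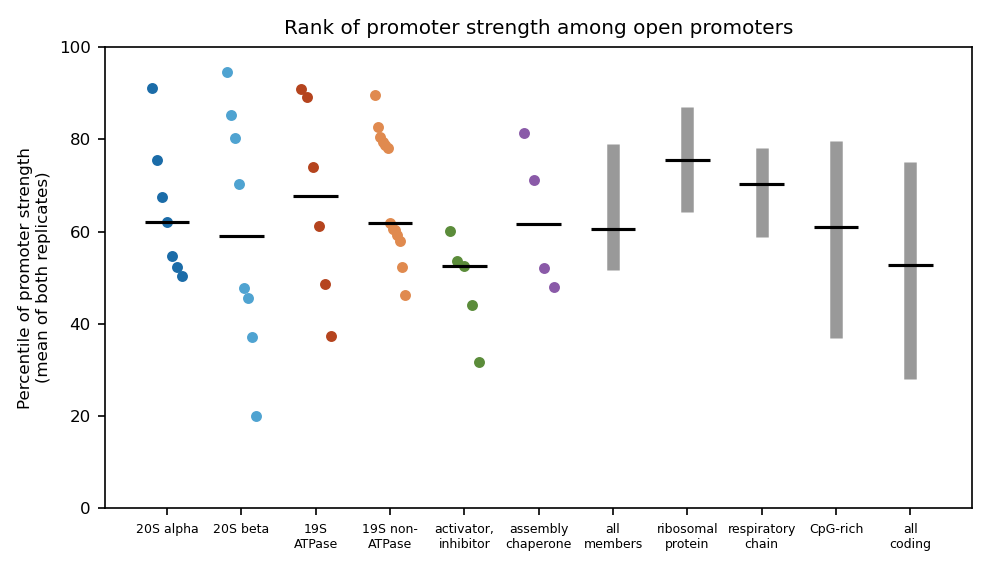
Percentile of promoter strength among open promoters (vertical axis, mean of both replicates). Points are single genes of each role, black bars are medians, and grey bars span the 25th to 75th percentile of all members and of the comparison lists. The medians run from 52.6 in the activators and inhibitor to 67.7 in the ATPases, below the 75.5 of ribosomal protein genes.

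Of the listed genes that work with the proteasome under other names, 27 were on these chromosomes and matched by symbol. All 27 were open, against 59.4% of all protein-coding genes, with a median percentile of 59.8 against 52.8 over all open promoters. Their median CpG ratio was 0.881. Of all genes with a CpG ratio of at least 0.6, 90.3% were open, with a median percentile of 60.9. By mean percentile the ubiquitin-activating enzyme gene Uba6 was the highest (98.4), at 38.3 and 11.3. The shuttle factor gene Rad23b followed (96.2), at 21.5 and 15.2, and was above Uba6 in replicate 2. The ubiquitin receptor gene Adrm1 had 15.5 and 8.94 and the deubiquitinase gene Uchl5 had 18.6 and 9.72. Nfe2l1 encodes the transcription factor known to raise proteasome genes when the protease is impaired, and had 29.0 and 7.09. Its relative Nfe2l2 had 5.85 and 2.63. The adaptor gene Ecpas was the lowest, at 2.00 and 1.86. The list was drawn up with earlier results of these data known.

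The replicates ranked the promoters alike only in part. Spearman's correlation of strength between replicates was 0.741 over the 44 genes and 0.911 over all open promoters, as a description across genes that share both libraries. These correlations cover unlike ranges. The quartiles of the mean percentile were 51.6 and 78.9 over the 44 genes, against 28.05 and 75.1 over all open promoters. The SD of the log2 ratio between replicates was 0.565 over the 44 genes and 0.659 over all open promoters. Strength was lower in replicate 2 in 41 of the 44 genes and in 10189 of the 12325 open promoters. The median log2 ratio of replicate 2 to replicate 1 was -0.60 over the members and -0.63 over all, a shift that includes the scale of each library. The largest drop was that of Psmb6, with a log2 ratio of -1.86. The exceptions that were higher in replicate 2 were Psmg3 (0.61, from 3.63 to 5.53), Psmg1 (0.49) and Psmd6 (0.22). The smallest change was that of Psmb2, at -0.12 (11.7 and 10.8). Promoters of the thymocyte markers were lower in replicate 2 in 11 of 11 genes, with a median log2 ratio of -1.43. The open promoters of the other marker lists had medians of -0.33 (4 thymic epithelial genes), -0.69 (2 myeloid), -0.38 (4 endothelial and mesenchymal) and -0.18 (1 erythroid). The median of the proteasome genes stayed near that of all genes. The part of cell composition in these replicate differences was not tested.

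The positions of the peaks were mostly shared. The strongest promoter peaks of both replicates overlapped in 42 of 44 genes (95.5%), against 94.0% of all open promoters. The exceptions were Psmb10 and Psmg2. The strongest peak held an annotated TSS in 38 genes in replicate 1 and 39 in replicate 2, and its midpoint lay at a median of -21 and -21.5 bp from the nearest TSS. Neither was computed over all open promoters, so whether these genes differ from others in this cannot be said.

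The open stretch at these promoters was short. Summed over all peaks of a promoter, its median length was 230 bp in replicate 1 and 240 bp in replicate 2, against 360 and 380 bp over all open promoters. Genes with 1 annotated TSS gave 220 and 220 bp, against 280 and 320 bp over all such genes. A single promoter peak in both replicates was found in 24 of the 44 (54.5%), against 36.2%. The comparison lists were similar in length: ribosomal protein genes had 240 and 260 bp and respiratory chain genes 220 and 240 bp. The strongest peak by itself was about as wide as elsewhere, with medians of 200 and 220 bp against 220 and 240 bp.

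The promoter peaks held 251 footprints in replicate 1, from 2 to 10 per gene, and 293 in replicate 2, from 1 to 16. The median was 5.75 per promoter against 6.0 over all open promoters, but 2.2 against 1.63 per 100 bp of peak. Ribosomal protein genes and respiratory chain genes both had 2.08 per 100 bp. Of the footprints of replicate 1, 76.1% overlapped one of replicate 2 by at least 1 bp, and 74.1% the other way round. Over all open promoters these shares were 65.6% and 66.0%. The median footprint centre lay at -22.5 and -37 bp from the TSS, and 65.7% and 58.0% of footprints lay within 100 bp of it. These positions were not computed over all open promoters.

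**Figure D3:**
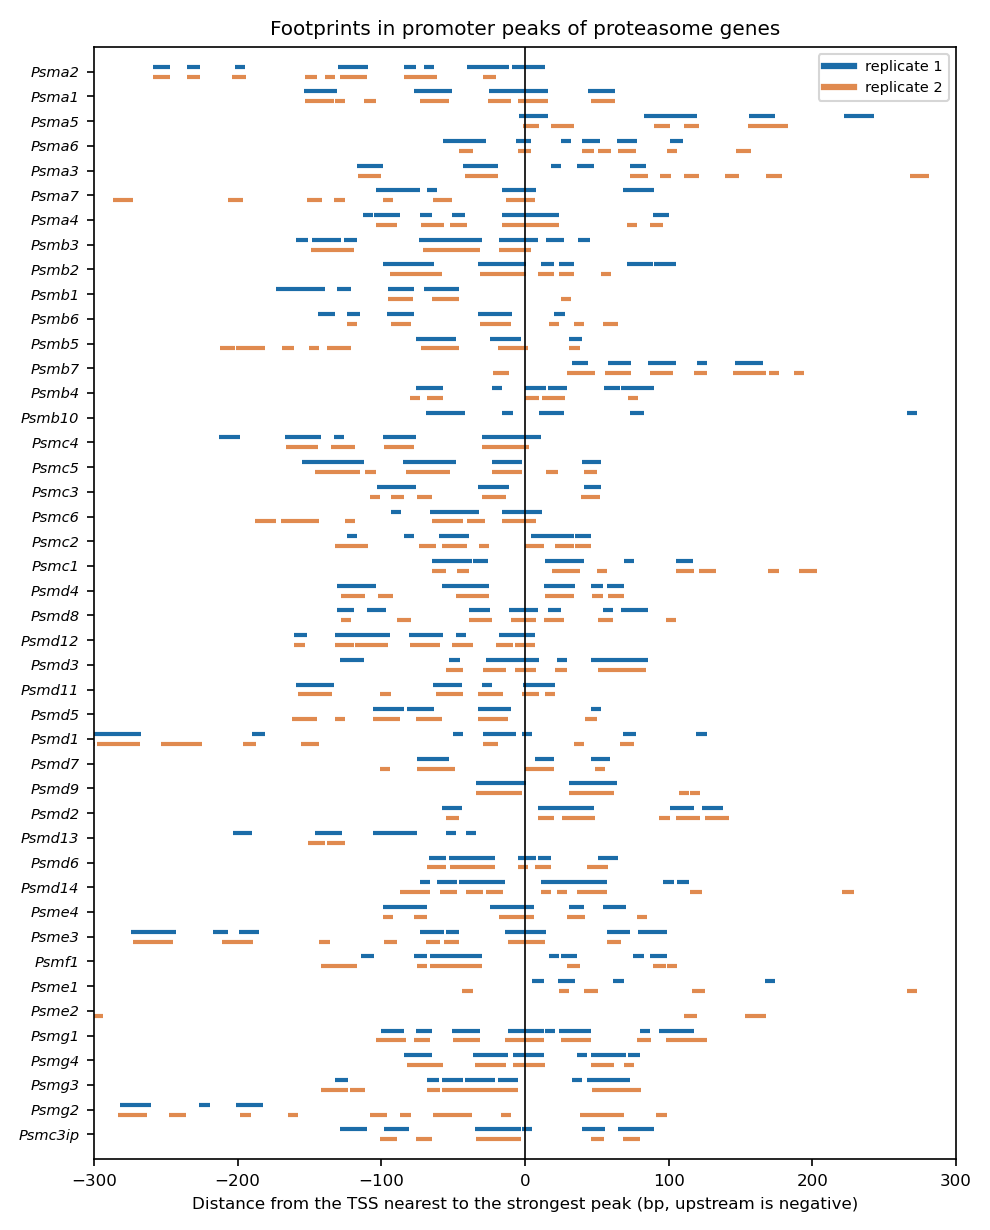
Footprints in promoter peaks of the 44 open genes, as bars at their distance from the TSS nearest to the strongest peak (horizontal axis, bp, upstream is negative; bars beyond 300 bp are not drawn). Blue is replicate 1 and orange replicate 2. The bars cluster upstream of and across the TSS, with 165 of 251 and 170 of 293 footprints within 100 bp.

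The promoters were next searched for the letters of 15 fixed motifs on both strands, from 250 bases before to 50 after the outermost TSS. A match is a description of the sequence and does not show that a factor binds. ETS letters were found in 17 of 46 genes (37.0%), against 11.4% of all protein-coding genes. Of the 44 open promoters 15 held them (34.1%), against 17.5% of all open promoters. The closed genes Psma8 and Psme2b also held the letters. In footprints of both replicates with 5 bp added to each side, they were found in 12 of the 44 open promoters (27.3%), against 10.8%. The 12 came from every role: Psma6 and Psmb7 of the core, Psmc1, Psmc6, Psmd4, Psmd6, Psmd7 and Psmd14 of the 19S particle, the activators Psme3 and Psme4, the chaperone Psmg1, and Psmc3ip.

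YY1 letters (AAGATGGC) were in 6 genes (13.0%), against 2.98% of all, all 6 of them open (13.6%), against 4.23% of open promoters. They were in a footprint of both replicates only in Psmd7 (2.27%, against 1.69% of open promoters). The commonest letters were near the share of open promoters. GGGCGG was in 27 genes (58.7%), against 45.6% of all, 26 of them open (59.1%), against 64.2% of open promoters, and in footprints of 22 of the 44, against 50.8%. CCAAT was in 16 (34.8%) against 38.5% of all genes, and in footprints of 8 (18.2%) against 14.9%. These 8 were Psma3, Psma5, Psmb2, Psmb3, Psmc3ip, Psmd4, Psmd14 and Psme3.

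The antioxidant response core TGACNNNGC, through which NFE2L1 and NFE2L2 are known to act, was in 7 genes (15.2%), against 12.7% of all. All 7 were open (15.9%), against 14.3% of open promoters. The core lay in footprints of both replicates in Psmb5 and Psmd9 alone (4.55%), against 4.67%. In Psmd9 these letters overlap an SP/KLF match, as the printed sequence shows, and TGAC can also be part of a cAMP response element. That element, TGACGTCA, was found in Psmb2 alone (2.17%, against 2.49% of all genes). It lay there in a footprint of both replicates (2.27%, against 3.72% of open promoters), beside a BANP palindrome. NRF1 letters were in 7 genes (15.2%), against 8.50% of all, all 7 of them open (15.9%), against 13.5% of open promoters. They lay in footprints of 5 (11.4%), against 13.6%: Psma2, Psma4, Psmc4, Psmc5 and Psmg1.

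Letters of the inducible pathways were near their background. IRF letters (GAANNGAAA) and STAT letters (TTCNNNGAA) were each in 4 genes (8.70%), against 7.37% and 7.85% of all, and NF-kB letters (GGGANTTTC) in 1 (2.17%), against 1.15%. In footprints of both replicates, IRF letters were found in Psmb4 (2.27%, against 0.698% of open promoters) and STAT letters in Psmd2 (2.27%, against 1.40%). Neither was found in footprints of Psmb10, Psme1 or Psme2. RUNX letters (TGTGGT) were in 9 genes (19.6%), against 15.1% of all, all 9 of them open (20.5%), against 12.3% of open promoters. They were in no footprint of both replicates, against 1.94% of open promoters. TATAAA was in 4 genes (8.70%) against 12.6% of all, and in a footprint of Psmb4 (2.27% against 1.14% of open promoters). The E-box CACGTG was in 7 genes (15.2%) against 7.82% of all, 6 of them open (13.6%), against 10.1% of open promoters. It was in a footprint of Psma4 (2.27% against 3.73%). TCTCGCGA was in 2 genes (4.35%) against 1.36% of all, and ACTACAA of ZNF143 in 1 (2.17%) against 3.90%.

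**Figure D4:**
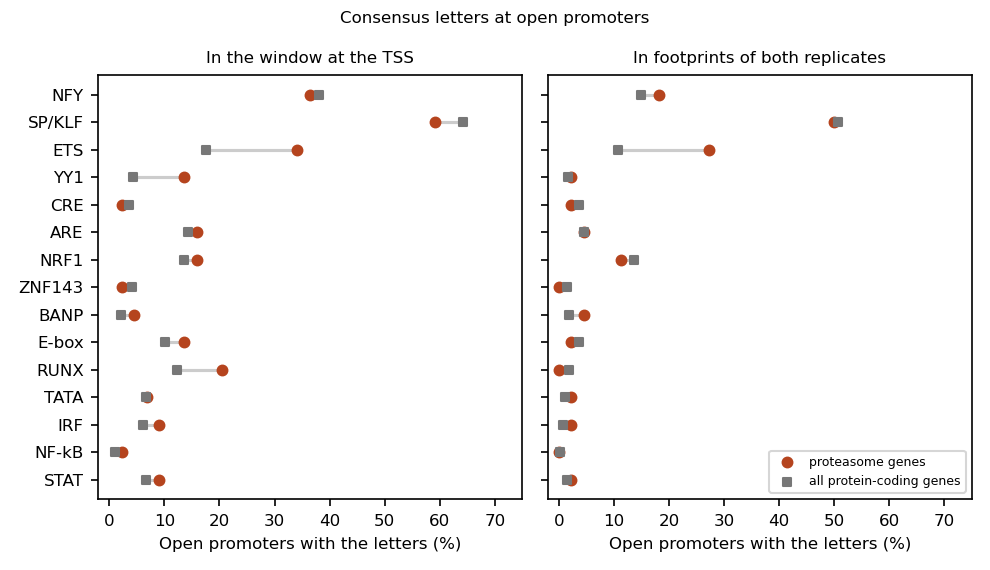
Share of open promoters with the letters of each motif (horizontal axis, percent), in the window at the TSS on the left and in footprints of both replicates on the right. Circles are the proteasome genes and squares all protein-coding genes. The widest gap on the right is that of ETS, at 27.3% against 10.8%.

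Several of the promoters are shared. A protein-coding gene starting on the other strand within 1000 bp upstream was found at 8 of the 44 open promoters (18.2%), against 14.7% of all open promoters. The distances between the TSSs were 32 bp for Psmc2 and Dnajc2, 75 bp for Psmc5 and Ftsj3, 75 bp for Psma2 and Mrpl32, and 76 bp for Psma7 and Ss18l1. They were 99 bp for Psmd13 and Sirt3, 137 bp for Psmb1 and Tbp, 263 bp for Psmg2 and Cep76, and 607 bp for Psme2 and Rnf31. Mrpl32 encodes a protein of the mitochondrial ribosome and Tbp the TATA-binding protein. The peaks of Psma4, Psma5, Psmc3 and Psmg3 were also promoter peaks of AY074887, 1700010K24Rik, Gm13778 and Gm26938. At such promoters the strength was not divided between the genes.

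Distal peaks, those more than 500 bp from any TSS, were counted in the gene body and 25 kb to each side. The 46 genes had a median of 6.03 per 100 kb, against 4.42 over all protein-coding genes, with 5.44 against 3.77 in replicate 1 and 6.58 against 4.86 in replicate 2. Ribosomal protein genes had 7.37 and respiratory chain genes 5.87. Of the 46, 31 lay above the all-gene median. The gap to all genes differed with the setting of the genes. Genes with at least 2 other genes in the window had 5.94 against 5.86 over all such genes, and those with 0 or 1 had 6.03 against 3.54. Genes with a CpG ratio of at least 0.6 had 5.48 against 5.60, and those with a lower ratio had 6.64 against 2.93. The part of gene density and CpG content in the count was not tested.

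The most distal peaks were those around Psmc3, with 17.6 and 22.5 per 100 kb in replicates 1 and 2. Its flank reaches into Spi1, which encodes the myeloid and early lymphoid factor PU.1, and the strongest distal peak, with 3.48 and 2.00, lay in that gene. Psma6 followed, with 16.6 and 17.8. Psmd12 had 13.4 and 20.03, Psmd4 15.02 and 16.7, and Psma3 12.6 and 18.1. The fewest were found at Psme2b, with 0 in both, Psma4, with 1.75 and 0, and Psme4, with 1.26 in both. The only overlap between windows of members was that of the neighbours Psme1 and Psme2. Of the tissue forms left out by the rule, Psmb8 had a mean of 52.1 and Psmb9 of 38.6, both above every member, and Psmb11 had 12.04.

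**Figure D5:**
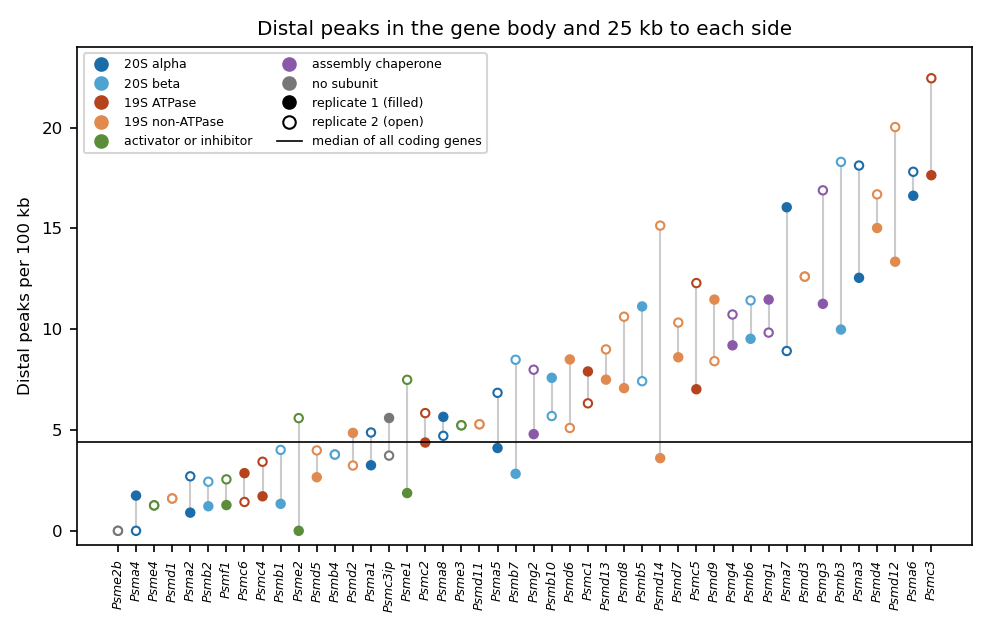
Distal peaks per 100 kb of gene body and flanks (vertical axis) for the 46 genes, ordered by the mean of both replicates and coloured by role. Filled points are replicate 1, open points replicate 2, and the line is the all-gene median of 4.42. Values run from 0 at Psme2b to 22.5 at Psmc3 in replicate 2.

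Some distal peaks were stronger than the promoter they flank. The strongest in any of the windows by replicate 1 lay at chr14:54603401-54603600, 14522 bp from the TSS of Psmb5 within 4931414P19Rik, with 17.9 and 6.82, above the 5.69 and 3.54 of the Psmb5 promoter. The next was inside Psma6 at chr12:55388641-55388840, with 13.8 and, above the former peak in replicate 2, 7.22. It lay 4518 bp from the outermost TSS and at -10035 bp from the inner TSS, at which the promoter was open, and exceeded the promoter peak in both replicates. In the body of Psmc2 a peak at chr5:21786641-21786820 had 9.65 and 4.94, against 4.72 and 4.22 at the promoter. Which gene any of these peaks acts on was not tested.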

How the data were processed

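Per the sample labels and the file listings deposited with them, peaks, false discovery rates (the p-value column of the track) and footprints were made from each library's own mm10 alignments. Replicates were not pooled. The sources used here do not name the aligner, the callers or their settings. The signal column of the longer peak list, as deposited by the authors, was taken as strength, and the p-value column of the footprints, constant at 0.01, was not used. Per the values, the authors' scale factor of the signal is unknown, so ranks within a replicate were used.

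Genes were those of GENCODE M21 (basic set) after leaving out 27 duplicated symbols. Overlap meant at least 1 bp. Values were computed with Python 3.11.15, pandas 2.3.3, pysam 0.24.0 and bedtools 2.31.1, and checked on simulated data. No test was made: genes are not replicates. The members, lists, motifs and rules were chosen with earlier results of these data known. Genes named with values were the strongest and weakest of each role, closed and inducible members, the extremes of distal counts and of replicate differences, and genes sharing a promoter peak. Others (the catalytic subunits, Psma6, Psmb1, Psmd5, Psmd9 and strong distal peaks) were chosen after their values were seen. Alternatives were the peak list, windows, TSS choice, scale of ranks and each replicate alone.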

Additional observations from a re-analysis of the deposited data

How the results depend on the processing

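Of 44 alternative values of the summary results, 36 stayed within the SD between replicates (medians; for the replicate log2 ratio, the SD over genes) or within 1.5 times the main value (counts), and 8 moved, and of 60 alternatives for single motifs 49 stayed within 1.5 times the main count. This tally is no test of stability. The SD came from the same replicates as the leave-out values, and counts of nearly all members had little room to move. The median per 100 bp of peak has another unit and was counted as moved. The median percentile was 57.4 with the shorter peak list (all open promoters 52.6), 75.5 when ranked among all genes (all genes 50.07), and 53.4 among promoters with a CpG ratio of at least 0.6 (52.6), an alternative chosen after seeing the data. The median of distal peaks per 100 kb was 4.01 with the shorter list (all genes 2.68) and 3.36 when distal meant over 2000 bp from any TSS (2.72). The median number of footprints was 6.5 within 1000 bp of a TSS (all 6.5) and 2.2 per 100 bp of peak (1.63). Leaving out either replicate gave 44 open promoters and 44 with footprints, 58.6 to 62.9 for the percentile, 5.44 to 6.58 for distal peaks and 5.00 to 6.00 for footprints. The cause of these shifts was not tested, apart from the smaller lists and wider windows that the alternatives use. Open promoters numbered 43 within 250 bp, which left out Psmb10, and 43 at the outermost TSS only, which left out Psmf1. RUNX letters fell from 9 genes to 3 in a shorter window that began 100 bases upstream. Over all genes their share fell from 15.1% to 7.66%. No paired analysis was possible because the samples form 1 group. Read depth is unknown, so no counting intervals could be given, and a closed promoter means only that no peak was listed.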
